A study of Mus musculus with 10 samples.

Results

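The genes described are 10 whose proteins shape the endoplasmic reticulum (ER): the reticulons Rtn1, Rtn2, Rtn3 and Rtn4, together with Reep5, Atl2, Atl3, Ckap4, Lnpk and Arl6ip1. They were chosen by symbol from the 56832 genes of the deposited count table, and all 10 were found and kept by the filter on low counts. The cells were cardiomyocytes of 5 Sprr1a-GFP mice, titled Hetz, in which myocardial infarction had been induced at 12 weeks of age. At 5 days after infarction the hearts were digested by Langendorff perfusion, and flow cytometry separated GFP+ cells (border zone, in the labels) from GFP− cells (remote zone). Each mouse (17C1, 17C2, 21A4, 21A5 and 21A7) gave 1 GFP+ and 1 GFP− library, so both groups carried the reporter and the infarct, and no uninjured heart was among the samples. The GFP reporter follows Sprr1a, a gene of the injured border zone, so a GFP+ cell is defined by that reporter and not by its place in the heart. The titles of the GFP+ libraries name a DAPI-negative and a DAPI-positive fraction and those of the GFP− libraries a DAPI-negative fraction only, so GFP status and the DAPI gate cannot be told apart.

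The ER is a single membrane system of flat sheets and narrow tubules. Reticulons and REEP proteins insert a hairpin into the outer leaflet of its membrane and bend it into tubules and sheet edges. Atlastins are GTPases that fuse tubules, lunapark sits at the junctions where tubules meet, and CKAP4 spans the lumen of sheets and keeps their width. In cardiomyocytes a specialised part of the same system, the sarcoplasmic reticulum, stores and releases calcium. Rtn4, also called Nogo, is best known for its long form, which inhibits axon growth, while its shorter forms are found in many tissues.

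Rtn4 carries most of what follows, and its annotated starts matter because the deposited counts add all its transcript forms together. RefSeq gives 3 start windows for Rtn4 on the plus strand of chromosome 11 (GRCm38.p6). The 250 bases before the first and before the last of these starts are shown, because neither stretch overlaps an annotated exon of Rtn4 in GENCODE vM21. The remaining window does overlap one and is left out. Capitals mark matches, on either strand, to GGAATG (the TEAD motif) or CCAAT (the CCAAT box).
Rtn4 first start, chr11:29692648-29692897: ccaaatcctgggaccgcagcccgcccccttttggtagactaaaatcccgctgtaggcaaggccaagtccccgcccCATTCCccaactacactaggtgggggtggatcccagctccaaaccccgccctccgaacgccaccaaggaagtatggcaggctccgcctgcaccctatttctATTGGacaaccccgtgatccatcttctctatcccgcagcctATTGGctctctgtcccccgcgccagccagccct
Rtn4 last start, chr11:29718313-29718562: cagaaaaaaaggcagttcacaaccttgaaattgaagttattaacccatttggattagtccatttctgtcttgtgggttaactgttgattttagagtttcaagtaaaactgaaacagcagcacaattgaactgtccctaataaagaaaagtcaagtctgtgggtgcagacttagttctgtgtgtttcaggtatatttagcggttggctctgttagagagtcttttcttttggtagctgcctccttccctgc

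Windows of 300 bases (250 before a start and 50 after it) were kept for 9 of the 10 genes, 13 windows in all. Windows of the chromosome that holds Reep5 were left out before the search, also from the percents over all windows. The letters TGACTCA (AP-1) occurred in 1 of the 13 windows, with its match beginning 16 bases into the transcribed part at the first Rtn4 start, and in 5.20% of all 32851 windows. GGAATG occurred in 5 of the 13 windows (1 each of Rtn1, Rtn2, Rtn3, Rtn4 and Atl3) and in 14.7% of all windows. CCAAT occurred in 5 of the 13 (1 each of Rtn1, Rtn4, Atl2, Lnpk and Arl6ip1) and in 37.4% of all windows, and TGACGTGG (the XBP1 core) in 0 of the 13 and in 0.676% of all windows. In the first Rtn4 window 2 CCAAT matches lie on the minus strand. These matches describe letters and not bound sites, and the last Rtn4 window held no match before its start.

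Libraries held 12244373 to 38879965 counts, of which 9.20% to 91.2% came from mitochondrially encoded genes, with the highest share in GFP+ of 21A7. Levels are given in CPM, counts scaled to a common library size after edgeR's TMM correction of the totals. Sprr1a, which the reporter follows, was at 0.191 to 8.98 CPM in GFP− and 158 to 317 CPM in GFP+ libraries. All 10 cardiomyocyte markers had counts in every library, and their sum ran from 3708 to 43468 CPM in GFP− and from 9336 to 36379 CPM in GFP+. The library labelled GFP− of 21A7 had less cardiomyocyte marker (3708 CPM) than fibroblast marker (12085 CPM), which no other library had, so results that rest on it are also given without it. Summed over 9 genes, fibroblast markers in GFP− were 131 and 284 CPM in the 17C mice and 6531 to 12085 CPM in the 21A mice. In GFP+ they were 264 and 316 CPM in the 17C mice and 1759 to 5131 CPM in the 21A mice. The titles of the 17C and 21A mice are worded differently, so values are also given within each identifier series. In bulk libraries fewer cells of a type and less RNA per cell cannot be told apart.

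Rtn4 was the only 1 of the 10 genes whose GFP+ and GFP− libraries did not overlap on the TMM scale. The share of all tested genes without overlap is not given here, so nothing is read from this count. Its GFP− level was 29.1 and 42.8 CPM in mice 17C1 and 17C2, and 41.9, 85.6 and 63.6 CPM in mice 21A4, 21A5 and 21A7. In GFP+ cells of the same mice it was 513 and 551 CPM, and 450.3, 619 and 150.0 CPM. The lowest GFP+ library, that of 21A7, lay above the highest GFP− library, that of 21A5. These levels rested on 487 to 3867 counts in GFP− and 1406 to 13480 counts in GFP+ libraries. The mean was 52.6 ± 22.2 CPM (SD, n = 5) in GFP− and 457 ± 182 CPM (SD, n = 5) in GFP+, an 8.68-fold ratio of means. On the log2 scale the fitted difference was 3.12 ± 0.47 (SE), and 3.10 ± 0.45 with the mouse as a block. Because Rtn4 was chosen with its difference known, these values are a description and no p-value is read from them.

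**Figure D1:**
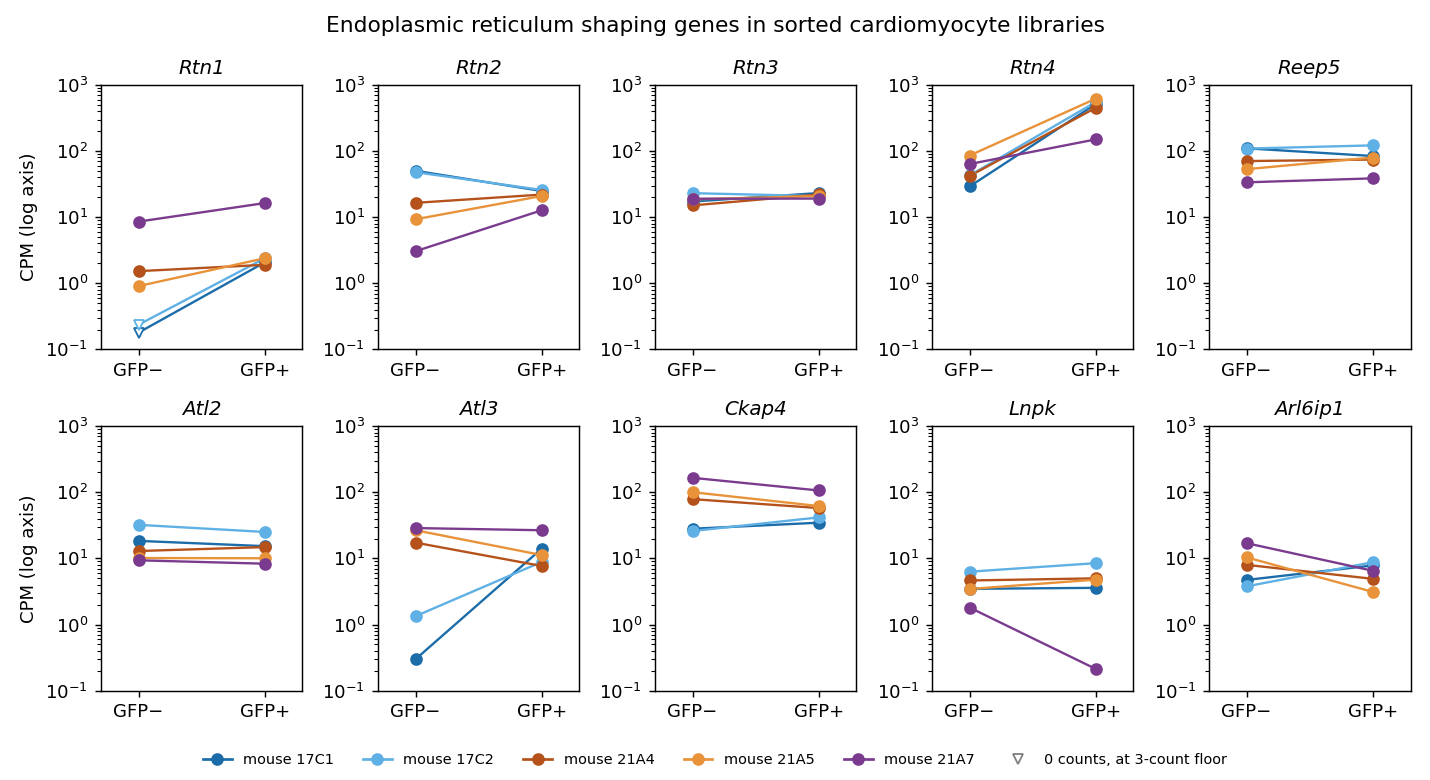
Level of each of the 10 genes in CPM (log axis, 1 range for all panels) in the GFP− and GFP+ library of each mouse, joined by a line per mouse. Rtn4 lies between 29.1 and 85.6 CPM in GFP− and between 150.0 and 619 CPM in GFP+, while Rtn3 stays between 15.1 and 23.2 CPM in all 10 libraries. Open triangles mark libraries with 0 counts, drawn at 3 counts.

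Within a mouse, GFP+ cells had 17.6 and 12.9 times the Rtn4 level of GFP− cells in the 17C mice, and 10.7, 7.23 and 2.36 times in 21A4, 21A5 and 21A7. On this TMM scale the ratio was above 1 in all 5 mice and smallest in 21A7, the mouse whose GFP+ library was 91.2% mitochondrial. In that mouse its size and sign depended on the scaling. With TMM its log2 ratio was 1.24, with totals outside mitochondrial genes 0.84, with the cardiomyocyte marker sum as the divisor −0.09, and with library totals −2.53. In the other 4 mice the log2 ratio was between 1.75 and 5.43 under these 4 scalings. Averaged over the 5 mice it was 3.07 ± 1.12 (SD) with TMM and 1.91 ± 2.703 with library totals. Without the GFP− library of 21A7 the fitted log2 difference was 3.16, and without both libraries of that mouse 3.41.

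**Figure D2:**
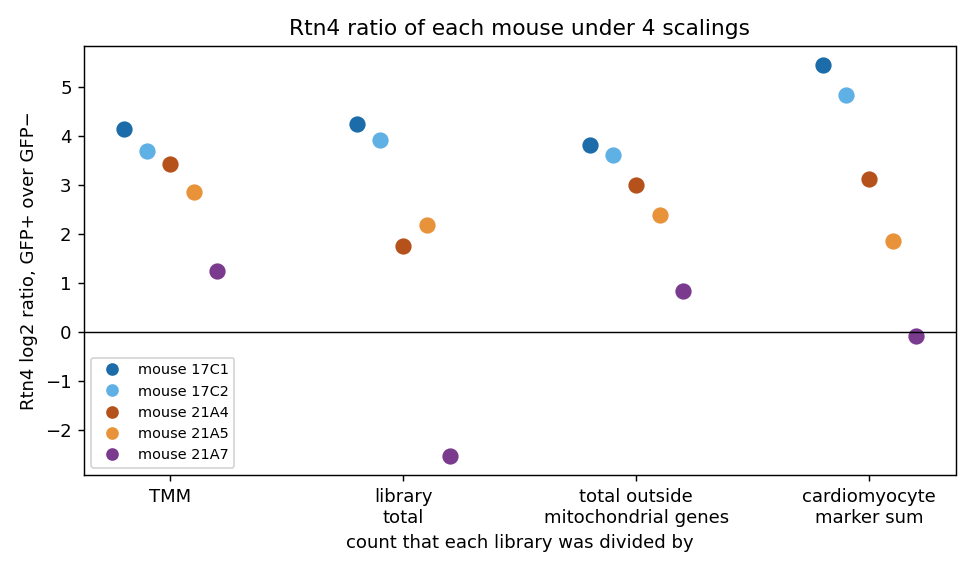
Rtn4 log2 ratio of GFP+ over GFP− (vertical axis) for each mouse under 4 ways of scaling the libraries (horizontal axis). 4 mice stay above 0 throughout, and 21A7 falls from 1.24 with TMM to −2.53 with library totals.

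The Rtn4 ratios were largest in the 17C mice, where fibroblast markers summed to 131 CPM in GFP− and 264 CPM in GFP+ of 17C1 and to 284 and 316 CPM in 17C2. Fitted within the 17C mice the log2 difference was 3.899 ± 0.29 (SE), and within the 21A mice 2.701 ± 0.59. The interaction of GFP status with identifier series, a measure that the choice of genes did not use, did not pass for Rtn4 (edgeR adjusted p = 0.178 over all genes). That p was between 0.0266 and 0.473 over 9 alternatives, and only without a filter on low counts was it under 0.05. The summed level of 5 mesothelial markers, among them Krt19 and Upk3b, was also higher in GFP+ cells of all 5 mice on the TMM scale. Fitted over all 5 mice, 0 of the 5 genes passed the threshold in either edgeR fit. The sum was 0.718 to 145 CPM in GFP− and 79.5 to 312 CPM in GFP+ libraries, with 3 of the 5 at 0 in GFP− of 17C1 (Msln, Upk3b and Krt19). From GFP− to GFP+ it went from 0.718 to 86.8 CPM in 17C1 and from 10.6 to 127 CPM in 17C2. In the 17C mice alone, Krt19, Upk3b, Lrrn4 and Msln passed edgeR's unpaired fit (adjusted p 0.0183 to 0.0326) and Wt1 did not (0.0586). In that fit 9.53% of all tested genes passed. The Schwann cell and neuron list summed to 0.359 to 10.7 CPM in GFP− and 13.6 to 29.7 CPM in GFP+, of which Tubb3 made up 13.6 to 27.7 CPM in GFP+. The part of other cells or of the DAPI gate in the Rtn4 difference was not tested. By GENCODE vM21 a 3′ exon of Eml6, on the opposite strand, overlaps the end of Rtn4, and the library kit does not mark strand. Eml6 itself averaged 2.47 CPM in GFP− and 1.46 CPM in GFP+.

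Of the 10 genes, 1 (Rtn4) had an adjusted p under 0.05 between GFP+ and GFP− in edgeR's unpaired fit, where 0.0825% of 12115 genes did. With the mouse as a block it was again 1 (Rtn4), where 0.858% of genes did. Since the 10 genes were chosen with this contrast known, nothing is read from these counts. The Rtn4 call was kept in 3 of 15 fits that left out a mouse or a library. Those 3 were the fits without mouse 21A7, without its GFP+ library and without the GFP− library of 21A5. The median log2 difference of the 10 genes was −0.02 and that of all genes tested −0.07. Leaving out the GFP− library of 21A7 moved the log2 difference of Rtn1 from 1.16 to 2.92, of Atl3 from −0.13 to 0.21, of Ckap4 from −0.40 to 0.02 and of Arl6ip1 from −0.50 to −0.15. It moved that of Rtn2 from −0.25 to −0.53, of Reep5 from 0.08 to −0.11, of Atl2 from −0.17 to −0.32 and of Lnpk from 0.17 to −0.03, and Rtn3 stood at 0.19 with and without it. With the mouse as a block the sign differed from the unpaired fit for Rtn2 (0.33), Atl3 (0.67) and Lnpk (−0.17). Without the GFP+ library of 21A7 the Rtn1 value was −0.02.

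Among the other reticulons, Rtn3 was the steadiest of the 10 genes on the TMM scale. Rtn3, a broadly expressed tubule protein that also acts as a receptor for degradation of ER tubules, stood at 17.2, 23.1, 15.1, 18.6 and 19.0 CPM in GFP− and at 23.2, 20.9, 22.0, 20.9 and 19.1 CPM in GFP+, in the order 17C1, 17C2, 21A4, 21A5 and 21A7. Its coefficient of variation over the 10 libraries was 13.1%, against 96.4% for Rtn4. The means were 18.6 ± 2.93 and 21.2 ± 1.52 CPM (SD, n = 5), and the groups overlapped.

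Rtn2, a reticulon abundant in striated muscle, followed the identifier series. In GFP− it ran 50.3, 47.9, 16.5, 9.29 and 3.05 CPM in that order of mice, and in GFP+ 24.9, 25.8, 22.0, 20.9 and 12.7 CPM. On the TMM scale it was therefore lower in GFP+ in both 17C mice and higher in all 3 21A mice. The log2 difference was −0.94 ± 0.23 (SE) in the 17C mice and 0.97 ± 0.57 in the 21A mice. The interaction with series was 2.14 ± 0.46 (SE, edgeR adjusted p = 0.0317). This call was lost without 17C1, 17C2 or 21A5 (adjusted p 0.0525 to 0.138). The cardiomyocyte marker sum of the GFP− libraries was, like Rtn2, highest in the 17C mice and lowest in 21A7 (36177, 43468, 29402, 17477 and 3708 CPM in the same order of mice). In GFP+ libraries that sum was 14739, 19739, 36379, 35205 and 9336 CPM, highest in 21A4, while Rtn2 there was highest in 17C2. The part of cardiomyocyte content in the Rtn2 values was not tested. Per cardiomyocyte marker count, the Rtn2 log2 ratio was above 0 in all 5 mice, from 0.11 to 0.72. With library totals the interaction was −0.0565 (edgeR adjusted p = 0.978), so whether it is seen depends on the scaling.

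Rtn1, known mainly from neurons and neuroendocrine cells, was the scarcest reticulon. It had 0 counts in GFP− of 17C1 and 17C2, and was at 1.53 CPM in 21A4, 0.907 in 21A5 and 8.57 in 21A7. In GFP+ the level was 2.07 and 2.38 CPM in the 17C mice, and 1.90, 2.39 and 16.3 CPM in 21A4, 21A5 and 21A7. Set against a floor of 3 counts per library, GFP+ was at least 11.5-fold higher in 17C1 and at least 10.1-fold higher in 17C2. The ratios in the 21A mice were 1.25-fold, 2.63-fold and 1.91-fold. GFP+ was thus the higher fraction in all 5 mice on the TMM scale, in 3 of 5 with library totals and in 4 of 5 with either other scaling. Both libraries of 21A7 stood apart from the other 4 of their group. The interaction with series had an edgeR adjusted p of 0.0313, and the call was lost without 17C1, 21A4, 21A5 or 21A7 (0.0622 to 0.111). As shares of the 4 reticulons together, on a CPM per kilobase scale, Rtn4 made up 22.4% to 67.4% in GFP− libraries and 68.5% to 90.6% in GFP+ libraries.

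Among the tubule proteins outside the reticulon family, 1 had near-equal means in both fractions and 1 depended on the series. Reep5, a hairpin protein of the ER and the sarcoplasmic reticulum, was at 110.0, 109, 70.5, 53.2 and 33.7 CPM in GFP− and at 84.2, 122, 74.4, 79.8 and 38.6 CPM in GFP+. The means of 75.3 ± 33.8 and 79.8 ± 29.6 CPM (SD, n = 5) differed by less than the spread within either group. Mouse 21A7 was the lowest of the 5 in both groups. Arl6ip1, a small hairpin protein of tubules, was at 4.73 and 3.78 CPM in GFP− of the 17C mice and at 7.996, 10.4 and 17.01 CPM in the 21A mice. In GFP+ it was at 7.83 and 8.76 CPM and at 4.92, 3.12 and 6.51 CPM. It was higher in GFP+ in both 17C mice and lower in all 3 21A mice, with an interaction of −2.24 ± 0.55 (SE, edgeR adjusted p = 0.0405). That call was lost on leaving out any 1 of the 5 mice (adjusted p 0.0622 to 0.135).

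**Figure D3:**
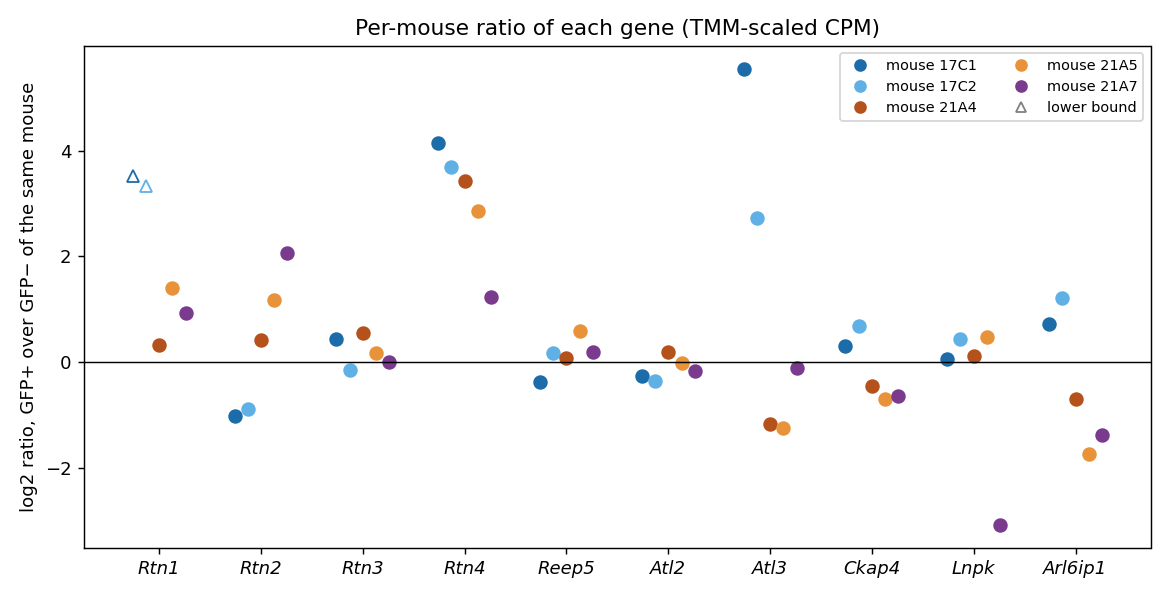
Log2 ratio of GFP+ over GFP− of the same mouse on the TMM scale (vertical axis) for each of the 10 genes, 1 point per mouse. Rtn4 is above 0 in all 5 mice (1.24 to 4.14), and Rtn2, Atl3, Ckap4 and Arl6ip1 have opposite signs in the 17C and the 21A mice. Open triangles for Rtn1 are lower bounds.

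The atlastins differed from one another. Atl2 was at 18.4, 32.2, 12.9, 10.1 and 9.36 CPM in GFP− and at 15.3, 25.1, 14.8, 10.1 and 8.32 CPM in GFP+. Its ratio was between 0.781 and 1.15 in every mouse, and 17C2 was the highest and 21A7 the lowest mouse in both fractions. Atl3 was at 0.299 and 1.34 CPM in GFP− of 17C1 and 17C2 and at 17.3, 26.7 and 28.8 CPM in GFP− of 21A4, 21A5 and 21A7. In GFP+ it was at 14.0 and 8.86 CPM in the 17C mice and at 7.69, 11.2 and 26.7 CPM in the 21A mice. The ratio was 46.9-fold and 6.62-fold in the 17C mice and 0.444, 0.422 and 0.927 in the 21A mice. Over all 5 mice the log2 difference was −0.13 ± 0.87 (SE) in the unpaired fit and 0.67 ± 0.95 with the mouse as a block, and the mean of the per-mouse log2 ratios was 1.15 ± 2.94 (SD, n = 5). The interaction with series was −4.76 ± 0.74 (SE, edgeR adjusted p = 0.0201), and it was lost without 17C1 (0.0877) or without 21A5 (0.0761).

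Ckap4, the sheet protein, was at 28.1 and 26.0 CPM in GFP− of the 17C mice and at 78.8, 100.4 and 166 CPM in the 21A mice. In GFP+ it was at 34.7 and 41.7 CPM and at 57.8, 62.0 and 107 CPM. It was higher in GFP+ in both 17C mice and lower in all 3 21A mice, and the interaction did not pass (adjusted p = 0.0674). With totals outside mitochondrial genes the ratio of 17C1 turned to −0.02 on the log2 scale. The GFP− libraries of the 21A mice, which were highest in Ckap4, Atl3 and Arl6ip1 among GFP− libraries, were also the GFP− libraries highest in fibroblast markers, and the part of these markers in the 3 genes was not tested. Macrophage markers (9 genes) had the same split in GFP−, at 23.7 and 31.7 CPM in the 17C mice and 299 to 699 CPM in the 21A mice, as had endothelial markers (7 genes), at 65.5 and 80.5 CPM and 458 to 501 CPM. In GFP+ fibroblast markers were again higher in the 21A mice (1759 to 5131 CPM against 264 and 316 CPM), as was Ckap4. Arl6ip1 in GFP+ was lower in the 21A than in the 17C mice, and Atl3 of 21A4 and 21A5 lay below that of 17C1. Lnpk, the junction protein, was at 3.47, 6.30, 4.64, 3.45 and 1.81 CPM in GFP− and at 3.59, 8.47, 5.00, 4.78 and 0.213 CPM in GFP+. The last of these is 2 counts against 100 in GFP− of the same mouse, a ratio of 0.118 with a 95% exact interval of 0.0141 to 0.438 that covers counting error only. In the other 4 mice the Lnpk ratio was 1.03 to 1.38.

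**Figure D4:**
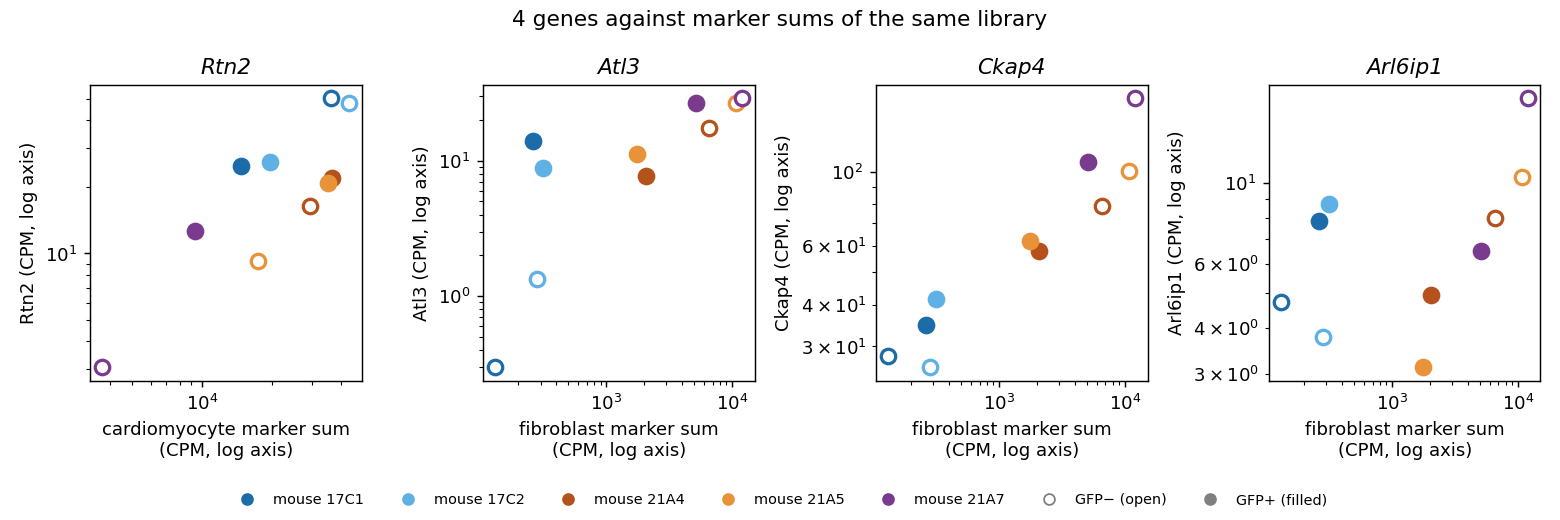
Level of Rtn2 against the cardiomyocyte marker sum, and of Atl3, Ckap4 and Arl6ip1 against the fibroblast marker sum, for each of the 10 libraries (CPM, log axes). The GFP− libraries of the 21A mice, with 6531 to 12085 CPM of fibroblast markers, are the highest GFP− libraries in Atl3 (17.3 to 28.8 CPM), Ckap4 (78.8 to 166 CPM) and Arl6ip1 (7.996 to 17.01 CPM). Among GFP+ libraries the 21A mice are higher than the 17C mice in Ckap4 and lower in Arl6ip1.

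Across the 10 genes, 4 (Rtn1, Rtn2, Atl3 and Arl6ip1) passed the test of the interaction of GFP status with identifier series, where 7.62% of 12115 genes did. The direction was positive for Rtn2 and negative for the other 3. Leaving out 17C1 or 21A5 left 0 of the 10 past the threshold, and leaving out any of the other 3 mice left 2 (without 21A7, Rtn2 with an adjusted p of 0.0401 and Atl3 with 0.0165). Within the 17C mice alone the unpaired fit called 4 of the 10 (Rtn1, Rtn4 and Atl3 higher, Rtn2 lower), where 9.53% of 11107 genes were called. Within the 21A mice it called 0 of the 10 and 0% of 13221 genes (1621 genes at an unadjusted p under 0.05). These within-series counts come from the contrast the genes were chosen with, and nothing is read from them.

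Per kilobase of exon, the 10 genes can be set beside one another. Lengths were unions of GENCODE vM21 exons and stand in for the annotation of the deposited counts. In GFP− libraries the order of mean CPM per kilobase was Ckap4 (25.8 ± 18.7, SD, n = 5), Reep5 (23.9 ± 10.7), Rtn4 (7.52 ± 3.17), Rtn2 (5.54 ± 4.83), Rtn3 (3.70 ± 0.58), Arl6ip1 (3.54 ± 2.13), Atl2 (1.69 ± 0.96), Atl3 (1.47 ± 1.34), Rtn1 (0.44 ± 0.73) and Lnpk (0.43 ± 0.18). Neighbours in this order differed by less than the larger of their SDs, except Reep5 and Rtn4. In GFP+ libraries Rtn4 moved to the first place (65.3 ± 26.0), ahead of Reep5 (25.3 ± 9.41) and Ckap4 (19.6 ± 9.09), and the order of the other 7 was as in GFP−. Without the GFP− library of 21A7, Reep5 (27.2 ± 9.01, SD, n = 4) came before Ckap4 (18.9 ± 12.0) in GFP− and Lnpk (0.49 ± 0.15) before Rtn1 (0.12 ± 0.15), with the other 6 in the same order.

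The genes most like Rtn4 in pattern were found by Pearson's r of log2 CPM over the 10 libraries, among 4697 named genes with a mean of at least 10 CPM. They were Serpinb1a (r = 0.981), an inhibitor of neutrophil proteases, Col4a5 (0.971), a basement membrane collagen, Pfkp (0.970), a phosphofructokinase of glycolysis, Uchl1 (0.970), a ubiquitin hydrolase, and Slc39a13 (0.970), a zinc transporter of intracellular membranes. All points share the 5 mice and the 2 fractions, so a gene that differs between fractions scores high whatever its variation within them. When deviations from each group's mean were correlated in place of levels, Slc39a13 came first (r = 0.934) and was the only 1 of these 5 still among the top 5. Of the other ER shaping genes with at least 10 CPM, Rtn3 was nearest to Rtn4 (r = 0.611, rank 449).

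The wider ER machinery around these genes was read from lists fitted in the same models. In edgeR's unpaired fit 0.0825% of all 12115 genes passed the threshold, and 991 had an unadjusted p under 0.05. With the mouse as a block 0.858% passed. Of 17 other tubule and sheet proteins tested, 0 passed in edgeR's unpaired fit (2 at an unadjusted p under 0.05, 0 with DESeq2 or voom), and 1 fell with the mouse as a block. That gene was Rrbp1, the ribosome-binding protein of rough sheets, at 122 ± 109 CPM in GFP− and 49.1 ± 42.3 CPM in GFP+ (SD, n = 5), lower in 5 of 5 mice, with a blocked log2 difference of −1.29 ± 0.20 (SE, edgeR adjusted p = 0.0376). Its unpaired difference of −1.31 ± 0.86 did not pass (adjusted p = 0.713), and the blocked call was lost without any 1 of 17C2, 21A4, 21A5 or 21A7 (0.0588 to 0.245) and with library totals (0.227). Ktn1, a kinesin-binding sheet protein, averaged 99.6 ± 37.7 and 143 ± 81.2 CPM (SD, n = 5) and did not pass in either fit. The list's median log2 difference was 0.30, with 12 of 17 above 0.

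In the translocon and glycosylation list 0 of 18 genes passed edgeR's unpaired fit (1 at an unadjusted p under 0.05, and 1 past the threshold with DESeq2 or voom), and 1 rose with the mouse as a block. Spcs3, a subunit of the signal peptidase that trims proteins entering the ER, was at 13.4 to 26.2 CPM in GFP− and 33.5 to 187 CPM in GFP+. Its blocked log2 difference was 2.09 ± 0.37 (SE, edgeR adjusted p = 0.0473) and its unpaired one 2.35 ± 0.48 (adjusted p = 0.108). The blocked call was lost without 17C2, 21A4 or 21A5 (0.167 to 0.256), with DESeq2 size factors (0.0518) and with library totals (0.514). Ssr3, a subunit of the translocon-associated complex, averaged 59.7 ± 13.8 and 85.6 ± 32.9 CPM (SD, n = 5) and did not pass. The median of the list was 0.13.

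**Figure D5:**
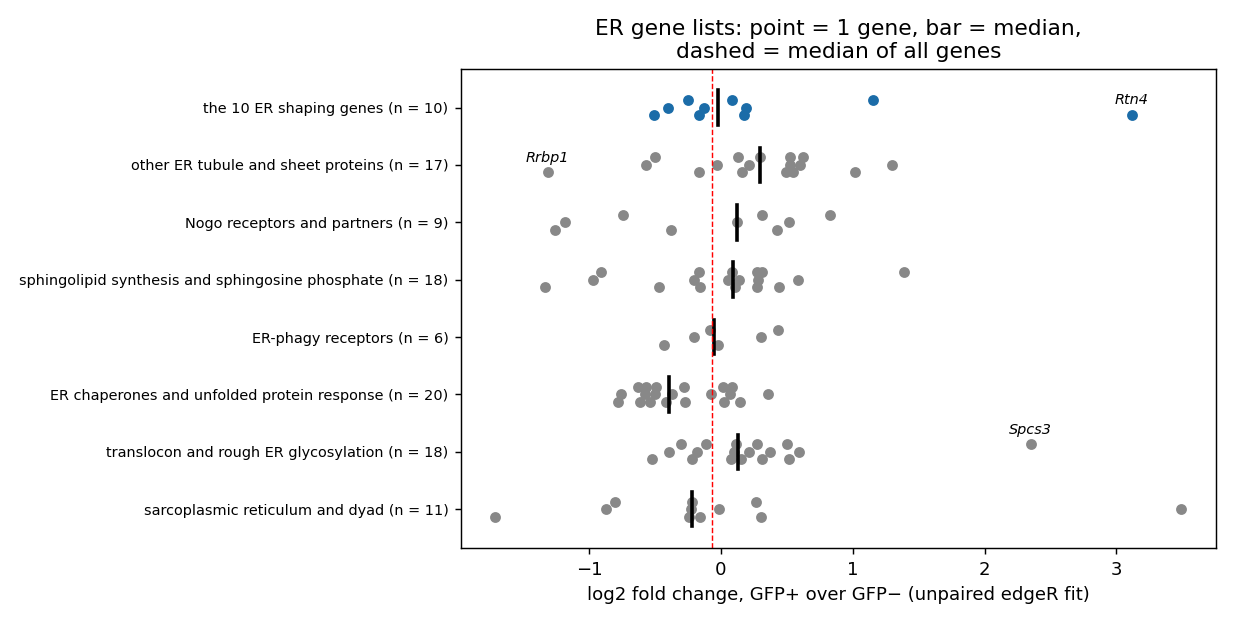
Log2 difference of GFP+ over GFP− from the unpaired fit (horizontal axis) for each tested gene of the 10 ER shaping genes and of 7 lists around them, with a bar at each median and a dashed line at the median of all genes (−0.07). Rtn4 stands at 3.12, far from the other 9, Spcs3 at 2.35 and Rrbp1 at −1.31. The point at 3.49 is Jsrp1, which reached at most 1.96 CPM in any library.

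Fitted over all mice, the remaining 5 lists had 0 genes past the threshold in either edgeR fit and 0 with DESeq2 or voom. At an unadjusted p under 0.05 in the unpaired fit there were 0 Nogo receptor genes, 1 sphingolipid gene, 0 ER-phagy receptors, 1 chaperone gene and 2 sarcoplasmic reticulum genes. Over all 12115 genes 991 were under 0.05 in that fit and 0.0825% passed the threshold. With so few genes passing anywhere, counts of 0 are not read as a lack of difference. Among 9 tested Nogo receptors and partners (median 0.12), the best expressed were Nus1, the Nogo-B receptor subunit of dolichol synthesis (19.2 ± 5.29 and 25.8 ± 9.80 CPM, SD, n = 5), and Tspan3 (32.4 ± 12.2 and 40.2 ± 13.1 CPM). Of 18 genes of sphingolipid synthesis and sphingosine phosphate (median 0.09), a pathway whose first enzyme RTN4 is known to restrain, Degs1 averaged 13.9 ± 2.40 and 17.2 ± 6.21 CPM and the receptor S1pr1 15.0 ± 8.50 and 18.3 ± 8.21 CPM. The 6 ER-phagy receptors tested had a median of −0.05. Retreg1, a reticulon-like sheet receptor, averaged 89.1 ± 81.7 and 83.9 ± 40.3 CPM and Calcoco1 averaged 35.0 ± 10.1 and 30.4 ± 11.2 CPM.

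ER chaperones and genes of the unfolded protein response, which rise under ER stress, had a median of −0.39 over 20 genes, with 6 above 0. This median is from the fit over all mice and does not describe either identifier series alone. Hspa5, the main ER chaperone, was at 223 ± 79.9 CPM in GFP− and 185 ± 39.4 CPM in GFP+ (SD, n = 5), and Calr, a calcium-binding chaperone, at 245 ± 121 and 233 ± 63.2 CPM. Within the 17C mice the log2 difference was −0.14 for Hspa5 and 0.56 for Calr, and within the 21A mice −0.31 and −0.33. For the sarcoplasmic reticulum and dyad the median over 11 genes was −0.22. Ryr2, the calcium release channel, averaged 1004 ± 604 and 898 ± 562 CPM (SD, n = 5), and Atp2a2, the calcium pump, 2842 ± 1802 and 1627 ± 697 CPM. The 2 series differed in both genes. Within the 17C mice the log2 difference was −1.26 for Ryr2 and −1.62 for Atp2a2 (edgeR adjusted p = 0.0218 and 0.00675). In that fit 9.53% of all tested genes passed. Within the 21A mice it was 0.71 and 0.04, and neither gene passed. The interaction with series, which 7.62% of all genes passed, was passed by 3 of 11 genes of this list, 4 of 18 translocon genes, 2 of 20 chaperone genes, 1 of 18 sphingolipid genes, 1 of 6 ER-phagy receptors, 0 of 9 Nogo receptors and partners and 0 of 17 other tubule and sheet proteins. Among the genes named from these 7 lists, Ryr2 (edgeR adjusted p = 0.0356) and Retreg1 (0.0391) passed it. With library totals in place of TMM the median of all genes moved from −0.07 to −1.24, and the medians of the 7 lists to between −1.77 and −0.62, so the sign of a list's median is given on the TMM scale only.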

How the data were processed

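The authors deposited raw counts of reads for each gene, in 1 table of 10 libraries. Per the submitters' processing notes, genome build GRCm39 was used with STAR 2.7.9a, fastp 0.23.1, featureCounts and Subread 2.0.1. Which annotation, strand setting and multi-mapping rule were used is not given in the sources used here. Per the labels' protocols the libraries came from SMARTer amplification and Nextera XT, which do not mark strand, and no molecular identifiers are named, so counts of PCR copies are not separate molecules.

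Counts were fitted in R 4.3.3 with edgeR 4.0.16 (quasi-likelihood F-test, two-sided, TMM, filterByExpr, 12115 genes, Benjamini-Hochberg over all of them, threshold 0.05). Standard errors are the log2 difference over the square root of F. The model for the interaction held mouse, GFP status and GFP status by series. DESeq2 1.42.0 and limma 3.58.1 (voom) were alternatives. The fits were also run on simulated counts, with the same mean level of a gene in every library apart from differences set in GFP+ libraries. Those counts held no differences in cell content between mice, so that run does not show how the fits handle them. Libraries of a mouse pair by animal identifier, and the deviations of the paired libraries from their group means correlated with r = 0.292, 0.397, 0.161, 0.0741 and 0.637. The best match was not always the same mouse. GFP+ of 21A5 correlated best with GFP− of 21A4. GFP− of 17C1 correlated best with GFP+ of 17C2, and GFP− of 21A4 and of 21A5 with GFP+ of 21A7. The pairing therefore rests on the identifiers. No pair of libraries was identical.

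Members and lists were chosen with earlier results of these data known. Named genes are all 10 members, Sprr1a, list genes past the threshold in either fit and the 2 best expressed of each list, and the 5 genes most like Rtn4 (log2 CPM, prior count 2). Markers with 0 counts, the mesothelial markers Lrrn4 and Wt1, Jsrp1 and Eml6 were named after their values were seen. Promoter windows are RefSeq's, of build GRCm38.p6. Reep5 had no window, because windows of its chromosome were left out before the search.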

Additional observations from a re-analysis of the deposited data

Results flagged for a closer look

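Rtn1 was at 8.57 CPM in GFP− and 16.3 CPM in GFP+ of 21A7, each far from the other 4 libraries of its group by Dixon's test (nearest values 1.53 and 2.39 CPM). Of 20 groups of 5 libraries tested this way, chance would flag about 1 in 20. The difference between GFP+ and GFP− differed between the 17C and the 21A mice by edgeR's interaction test for Rtn1 (adjusted p = 0.0313), Rtn2 (0.0317), Atl3 (0.0201) and Arl6ip1 (0.0405). Ckap4 had a mean log2 ratio of 0.49 in the 17C mice and −0.59 in the 21A mice, with every mouse of a series on the same side of 0, and its interaction did not pass.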

How the results depend on the processing

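Against 10 genes past the threshold in the unpaired fit (10 higher, 0 lower), the count was 104 with the mouse as a block (83 higher, 21 lower), 205 with DESeq2 (160 higher), 336 with limma voom (285 higher), 635 with library totals (11 higher, 624 lower), 38 without a filter, 19 with a filter of 5 CPM in 5 libraries, 97 with the identifier series as covariate, 49 with a non-myocyte marker score as covariate, 1059 in the 17C mice alone and 0 in the 21A mice alone. Leaving out a mouse or a library gave 0 to 58 genes, with 58 without mouse 21A7. Of the 10 ER shaping genes, the block, DESeq2, voom and the other filters again called 1 (Rtn4). Library totals called 0, the 17C mice alone 4 (where 9.53% of all tested genes were called), the 21A mice alone 0, and leaving out a mouse or library 0 to 1. Since the 10 genes were chosen with this contrast known, nothing is read from these counts. The Rtn4 log2 difference was 1.92 with library totals and between 2.701 and 3.899 in the other 26 alternatives.

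For the interaction with series, 923 genes became 1733 without a filter and 473 with library totals, and 0 to 1035 on leaving out a mouse (0 without 17C1, 1 without 21A5). Of the 10 genes, 4 became 2 with library totals and 0 to 2 on leaving out a mouse. The Rtn2 interaction was near 0 with library totals (−0.0565, edgeR adjusted p = 0.978). The cause of these changes was not tested. The scalings of the per-mouse ratios, library totals for the interaction, the repeats of the blocked Rrbp1 and Spcs3 values and the per-kilobase order without GFP− of 21A7 were added after seeing the data.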
